A study of Mus musculus with 6 samples.

Results

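Germ cell genes were examined in E14Tg2a cells, a mouse embryonic stem (ES) cell line, as every probe set annotated to 10 named genes: Prdm1, Ddx4, Dazl, Kit, Nanos3, Sycp3, Stra8, Mael, Tdrd1 and Ifitm3. Of these, 9 genes had a probe set, 11 probe sets in all, out of 18193 genes with a probe set of their own. Nanos3, a zinc-finger RNA-binding protein needed for primordial germ cells to survive, enters only through its promoter, and its expression was not analysed here. The arrays fall into 3 groups of 2. One received activin at 10 ng/ml for 2 h, one received SB431542 at 5 µM for 24 h, and one was left untreated and is called control. BMP4 (20 ng/ml) and LIF (1000 U/ml) were present in the N2B27 medium of every group, so the controls carry the BMP4 signal too. Activin switches on the Smad2/3 pathway that Nodal also uses, and SB431542 blocks its type I receptors. The line is a single ES cell line, no vehicle control is named, and the 2 durations differ. Nothing in the labels tells if duplicate arrays stand for independent cultures. The p-values therefore reflect array-to-array spread alone, and that spread could be technical.

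In the mouse embryo, BMP4 from the extraembryonic ectoderm induces a few epiblast cells to become primordial germ cells, the precursors of sperm and eggs. Prdm1 (also called Blimp1) represses the somatic programme in those cells. Later genes of the lineage act in turn. Dazl and Ddx4 control germ cell RNA, Mael and Tdrd1 work in the nuage, where piRNAs silence transposons, and Stra8 and Sycp3 serve meiosis. ES cells share many genes with early germ cells, while many later germ line genes are held silent in them by repressors at their promoters, among them a complex of Max, Mga, E2f6 and Pcgf6.

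All values are log2 intensities unless stated otherwise, and a difference of 1 log2 unit is 2-fold. The median intensity of an array ranged from 37 to 49. The 27 control probe sets for bacterial transcripts, which no mouse RNA should match, reached at most 5.09 on this scale, and a probe set at or below that value is called at background. Lefty2, a direct target of Nodal signalling, averaged 10.34 in activin, 3.90 in SB431542 and 8.95 in control cells. Both SB431542 arrays were at background for it, so its difference there has only a bound. All 8 ES cell markers were above background on every array, with means over all arrays from 10.66 to 14.01 and summed levels of 15.62 to 15.64 in activin, 15.42 to 15.45 in SB431542 and 15.59 to 15.62 in control arrays. A summed level adds linear intensities before the log2, so the brightest probe sets of a list weigh most, here that of Dppa5a (14.01). With the trend 4 of the 8 were lower after SB431542 than in control, Pou5f1 (−0.43), Dppa5a (−0.28), Tdgf1 (−0.26) and Nanog (−0.24), and Klf4 was higher (0.50), against 2.23% of all genes lower and 4.25% higher. The same 4 were higher in activin than in SB431542 and Klf4 was lower, against 1.26% and 2.12% of all genes. Their part in the germ cell values below was not tested. Markers of other cells that a culture might hold were read as well. Of those measured, 1 of 5 post-meiotic male, 1 of 6 oocyte, 4 of 7 gonadal somatic, 4 of 8 fibroblast, 2 of 7 extraembryonic endoderm, 5 of 7 trophectoderm and 1 of 5 mast and blood cell markers were above background on every array.

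Of the 11 probe sets, 10 were above background on all 6 arrays and Tdrd1 was not. By their mean over the arrays, 21598 of the 34945 probe sets with 1 symbol were above background too, not counting Prdm1. The probe set means over all arrays ran from 4.59 for Tdrd1 to 11.93 for Ifitm3. Each probe set hybridises with its own efficiency, so levels of different probe sets do not rank the amounts of their RNAs. The range of the 3 group means was at most 0.17 for Ddx4, Mael, Sycp3 and Ifitm3, 0.30 and 0.27 for the Kit probe sets, and widest for Prdm1, at 0.87, and for 1 Dazl probe set, at 0.84. The plot of values by array shows each of them.

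**Figure D1:**
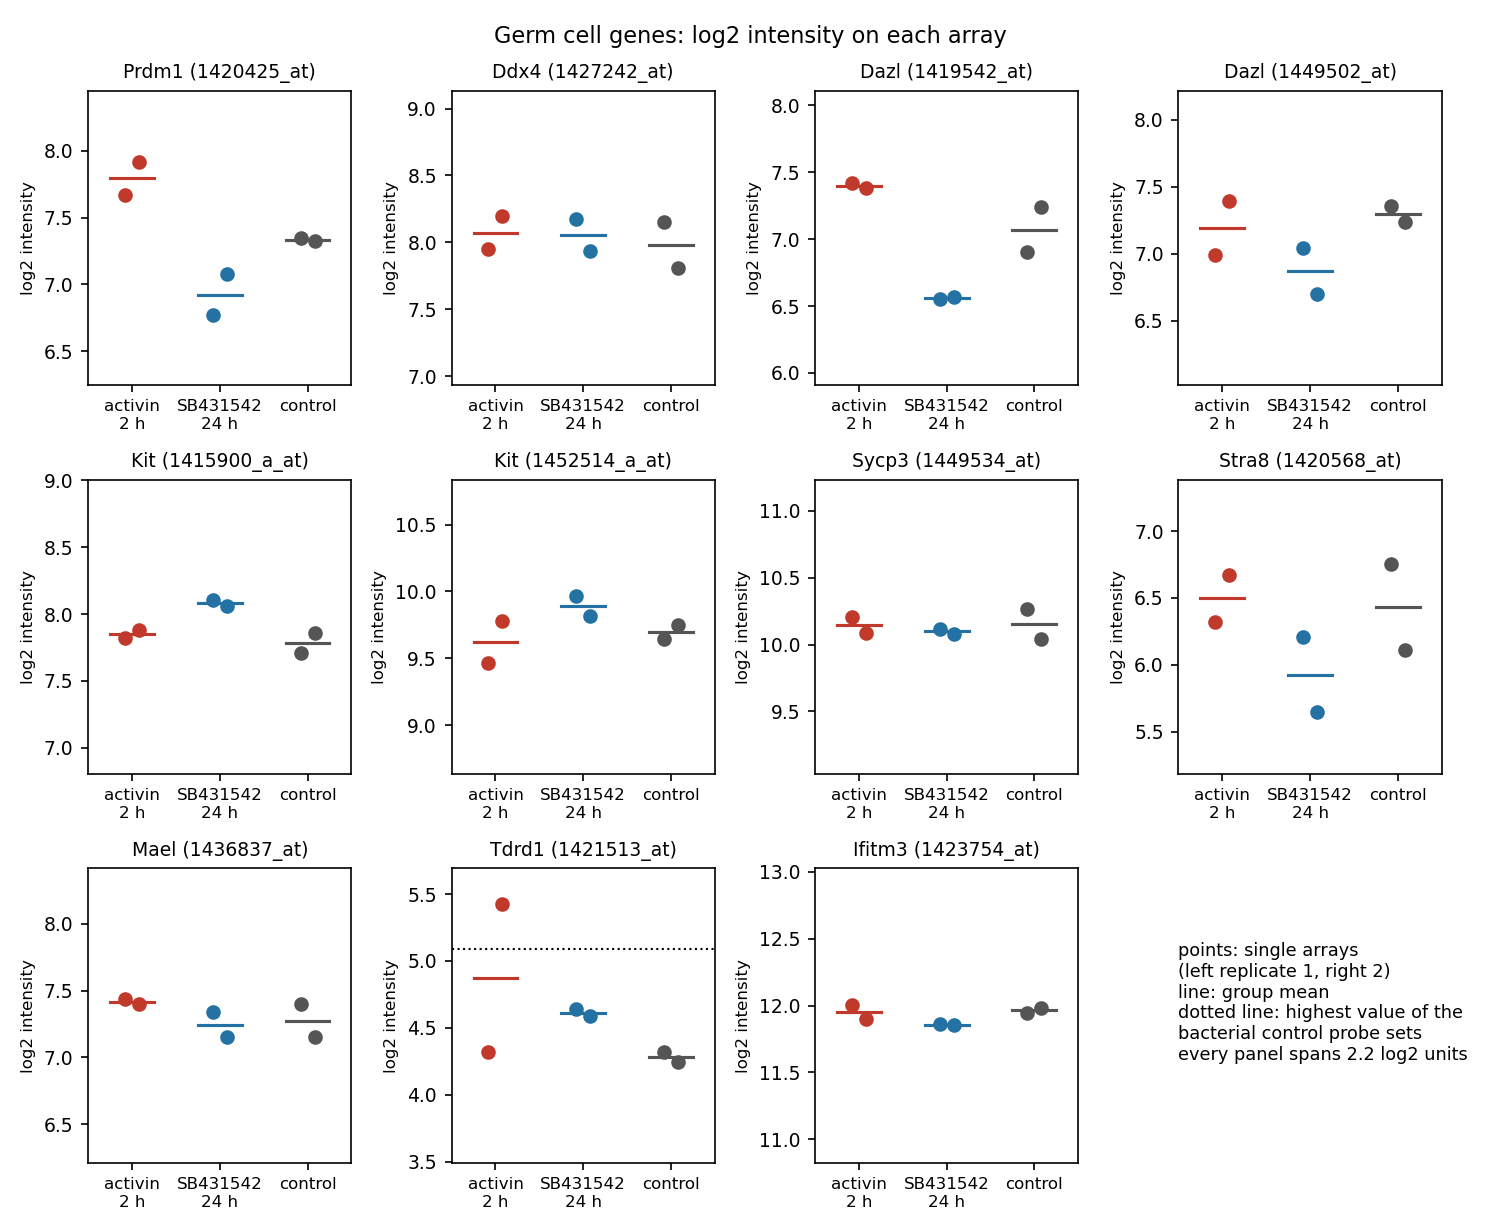
Log2 intensity of each germ cell probe set on each of the 6 arrays, by group (activin 2 h, SB431542 24 h, control), with points for arrays and a line for each group mean. Prdm1 averaged 7.79 in activin, 6.92 in SB431542 and 7.34 in control arrays, while Ddx4, Sycp3, Mael and Ifitm3 have group means within 0.17 of each other, and Tdrd1 passes the dotted background line of 5.09 on 1 activin array.

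Each comparison was tested with limma, which fits every probe set and adjusts its p-values over all 45037, and a difference passed when its adjusted p was under 0.05. Besides the default settings, limma was run with an intensity trend, in which the expected variance depends on a probe set's level, and with robust estimation. This second fit is called the trend. Over the 11 probe sets none passed in any comparison by default, where 0.02% of all probe sets passed between activin and SB431542, 0% between activin and control and 0.0155% between SB431542 and control. At an unadjusted p under 0.05 the same fit gave 2, 1 and 2 of the 11 in those comparisons, against 9.04%, 6.21% and 13% of all probe sets. With the trend, Prdm1 and 1 Dazl probe set (1419542_at) passed between the treatments, both higher after activin, against 0.802% of all probe sets higher and 1.47% lower (2.27% in all). No member passed with the trend against control, where 0.215% of all probe sets passed for activin (0.195% higher and 0.02% lower) and 4.98% for SB431542 (3.38% higher and 1.6% lower).

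Separation of the arrays was read in the same way. Between activin and SB431542, 5 probe sets had both activin arrays above both SB431542 arrays and 2 had both below, against 18.7% and 18.2% of all probe sets (36.9% together). Between SB431542 and control 3 lay above and 4 below, against 20.6% and 22.1% (42.7%). Between activin and control 2 lay above and 0 below, against 14.7% and 14.5% (29.2%). The median difference of the 11 was 0.17 between activin and SB431542 (0.02 over all probe sets), 0.07 between activin and control (−0.0011) and −0.06 between SB431542 and control (−0.03).

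**Figure D2:**
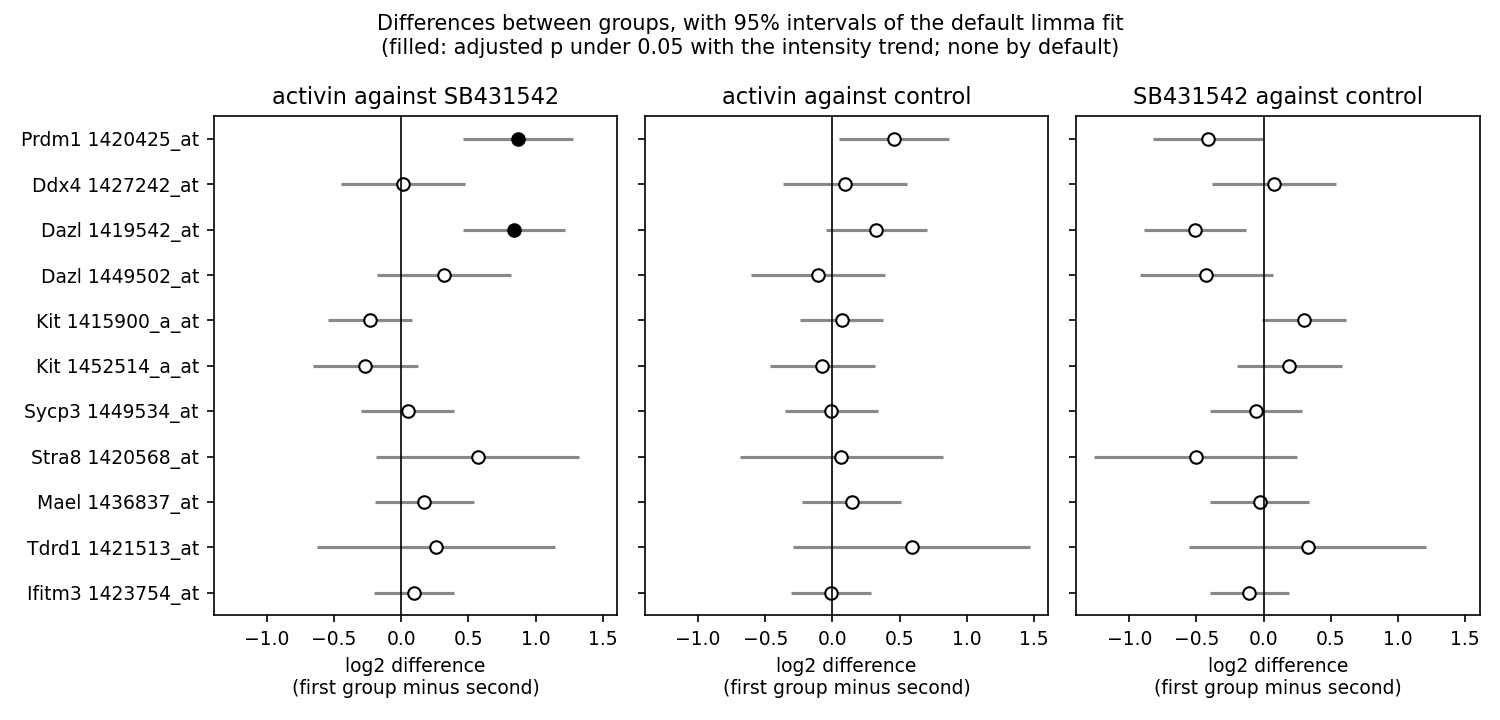
Log2 difference of each germ cell probe set in the 3 comparisons (x axis, first group minus second), with 95% intervals from the default limma fit. The filled points, Prdm1 (0.87) and Dazl 1419542_at (0.84) between activin and SB431542, passed with the intensity trend, and no point passed by default. The Tdrd1 points rest on values at background.

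Prdm1, the transcriptional repressor that starts the germ cell programme, showed the widest spread of group means. It read 7.67 and 7.91 on the activin arrays, 6.77 and 7.08 on the SB431542 arrays, and 7.35 and 7.32 on the control arrays. No array of one group overlapped another group, with activin highest, control between and SB431542 lowest. The share of all probe sets without overlap, given above for each pair of groups, was 29.2% to 42.7%. The share without overlap in every pair at once was not taken. Activin against SB431542, which share no array, gave a log2 difference of 0.87 (SE 0.16, 95% interval 0.46 to 1.28), a 1.83-fold higher level after activin. By limma at its default settings this did not pass once adjusted over all 45037 probe sets (adjusted p = 0.289). With the trend it did (limma adjusted p = 0.00351). The comparisons with control were smaller, at 0.46 for activin (SE 0.16, limma adjusted p = 0.793, and 0.538 with the trend) and −0.41 for SB431542 (SE 0.16, limma adjusted p = 0.383, and 0.233 with the trend). These last 2 differences share the control arrays. Without SB431542 replicate 1 the SB431542 minus control difference was −0.26. Without activin replicate 2 or SB431542 replicate 1 the difference between the treatments was 0.75 and 0.72, and no longer passed with the trend (limma adjusted p = 0.0798 and 0.163).

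Prdm1 is also used outside the germ line, in trophoblast and in endoderm. The 7 trophectoderm markers measured had summed levels of 13.14 to 13.22 in activin, 13.84 to 13.86 in SB431542 and 13.25 to 13.51 in control arrays, the reverse of the order of Prdm1, and 5 of them (Ascl2, Gata3, Hand1, Krt8 and Krt18) were higher after SB431542 than in control with the trend, against 4.25% of all genes. The others, Cdx2 (−0.11) and Elf5 (−0.43), were lower in the same comparison and did not pass. In this list Gata3 and Elf5 were at background on at least 1 array. Its sums rest mostly on Krt8 and Krt18, the brightest, with means of 12.45 and 12.30 over all arrays. The 7 extraembryonic endoderm markers summed to 8.51 to 8.83 in activin, 8.47 to 8.51 in SB431542 and 8.53 to 8.76 in control arrays, with Gata4, Gata6, Sox17, Sox7 and Afp not above background on all arrays. The sums of the 8 fibroblast markers ran in the order of Prdm1, at 9.93 to 9.97 in activin, 9.24 to 9.60 in SB431542 and 9.68 to 9.81 in control arrays. These sums rest mostly on Acta2, the brightest (mean 9.05 over all arrays), which did not pass in any comparison. Of the 8 markers, 2 had a higher mean in SB431542 than in control, unlike Prdm1. All 8 had a higher mean in activin than in SB431542, and 4 were above background on every array. Between activin and SB431542 Col1a1 passed with the trend (1.34, limma adjusted p = 0.00127), against 1.26% of all genes higher. With the trend Col1a1 was also lower in SB431542 than in control (−0.98, limma adjusted p = 0.0172), against 2.23% of all genes. It did not pass between activin and control (0.355, limma adjusted p = 0.859 with the trend). The part of these cell types in the Prdm1 and Dazl values was not tested. In bulk RNA, fewer cells with the transcript and less of it per cell cannot be told apart.

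The probe sets whose levels most resembled Prdm1 over the 6 arrays belonged to Foxp1 (Pearson r = 0.998), Tdgf1 (r = 0.992) and Dll1 (r = 0.988), out of 21598 probe sets above background with a symbol. These correlations describe 6 arrays that share their normalization. Foxp1 read 7.71 and 7.83 in activin, 7.18 and 7.39 in SB431542, and 7.54 and 7.51 in control arrays. Tdgf1, the Nodal co-receptor Cripto, read 12.58 and 12.70 in activin, 12.10 and 12.22 in SB431542, and 12.45 and 12.39 in control arrays, the same order of groups over a narrower range. Dll1 read 6.78 and 6.91 in activin, 6.13 and 6.32 in SB431542, and 6.44 and 6.55 in control arrays.

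Because Prdm1 and Dazl were the members that passed with the trend between the treatments, their promoters are shown, from 250 bases before an annotated start to 50 bases from it (RefSeq, GRCm38.p6). The capitals mark each Smad box, the short motif CAGAC or its reverse complement GTCTG that Smad proteins can bind. Prdm1 lies on the minus strand at chr10:44458699-44458998 and Dazl on the minus strand at chr17:50293571-50293870.
Prdm1: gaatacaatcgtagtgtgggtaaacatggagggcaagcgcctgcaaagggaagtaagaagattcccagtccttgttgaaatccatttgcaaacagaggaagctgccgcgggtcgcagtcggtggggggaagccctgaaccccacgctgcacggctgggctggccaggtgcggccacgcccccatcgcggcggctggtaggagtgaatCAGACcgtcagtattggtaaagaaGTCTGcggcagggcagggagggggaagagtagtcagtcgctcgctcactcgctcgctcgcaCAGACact
Dazl: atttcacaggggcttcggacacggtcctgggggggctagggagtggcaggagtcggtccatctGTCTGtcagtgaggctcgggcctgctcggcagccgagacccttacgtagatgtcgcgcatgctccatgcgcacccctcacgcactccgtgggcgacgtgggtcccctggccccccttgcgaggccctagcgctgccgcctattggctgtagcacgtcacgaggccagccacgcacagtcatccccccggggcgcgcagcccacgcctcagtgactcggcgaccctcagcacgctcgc
The Prdm1 window holds 3 such boxes, 43 and 19 bases before the start and 42 bases after it, and the Dazl window holds 1, 187 bases before the start. The motif is so short that 49.6% of 32851 mouse promoters of this length carry it, and 5 of the 10 germ cell genes do (53.2% of all genes), among them Ifitm3, which did not pass in any comparison. A match in letters is a description and shows no binding.

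Dazl encodes a germ cell RNA-binding protein that promotes translation of its targets, and it was measured by 2 probe sets that gave different results. The first, 1419542_at, read 7.42 and 7.38 in activin, 6.55 and 6.57 in SB431542, and 6.91 and 7.24 in control arrays. Its groups did not overlap, in the same order as for Prdm1. Taken pair by pair, 29.2% to 42.7% of all probe sets did not overlap, and the share for every pair at once was not taken. Activin was higher than SB431542 by 0.84 (SE 0.15, 95% interval 0.46 to 1.22), or 1.79-fold, with limma adjusted p = 0.279 by default and 0.0139 with the trend. The second, 1449502_at, read 6.99 and 7.39 in activin, 7.04 and 6.70 in SB431542, and 7.36 and 7.24 in control arrays. Activin and SB431542 overlapped there. The difference was 0.32 (SE 0.20, 95% interval −0.18 to 0.82, limma adjusted p = 0.698, and 0.624 with the trend). Leaving out 1 array moved it between 0.12 (without activin replicate 2) and 0.52 (without activin replicate 1).

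Against control, the SB431542 differences of the Dazl probe sets were −0.51 (SE 0.15, limma adjusted p = 0.302) and −0.43 (SE 0.20, limma adjusted p = 0.440). The arrays of the 2 groups did not overlap on either, as on 42.7% of all probe sets. Neither passed with the trend (limma adjusted p = 0.163 and 0.273). After activin the 2 probe sets lay on opposite sides of control, at 0.33 and −0.11. Without control replicate 1 the 0.33 became 0.16, and without SB431542 replicate 2 the −0.43 became −0.25. Averaged into 1 value for the gene, Dazl differed between activin and SB431542 by 0.58 and did not pass with the trend (limma adjusted p = 0.0919). Leaving out any 1 of the 4 treated arrays kept the first probe set between 0.82 and 0.86 but lost its call with the trend (limma adjusted p from 0.0634 to 0.133).

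Kit, the receptor tyrosine kinase that migrating germ cells need, had its highest values after SB431542 on both of its probe sets. The probe set 1415900_a_at read 7.82 and 7.88 in activin, 8.11 and 8.06 in SB431542, and 7.71 and 7.86 in control arrays. The probe set 1452514_a_at read 9.47 and 9.78 in activin, 9.96 and 9.82 in SB431542, and 9.65 and 9.75 in control arrays. On both, the 2 SB431542 arrays lay above all 4 others, by small margins. Over all probe sets, 20.6% had both SB431542 arrays above both control arrays, and 18.2% had them above both activin arrays. The share above all 4 was not taken. Against control the differences were 0.30 (SE 0.12, 95% interval −0.01 to 0.61, limma adjusted p = 0.394) and 0.19 (SE 0.16, 95% interval −0.20 to 0.58, limma adjusted p = 0.646). They did not pass with the trend (limma adjusted p = 0.318 and 0.422). Without SB431542 replicate 1 the 0.19 became 0.12. Of the 5 mast and blood cell markers, other cells that use Kit, only Gata1 was above background on every array. Kitl, the ligand of Kit, averaged 7.58 in activin, 7.90 in SB431542 and 7.74 in control cells and did not pass in any comparison.

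Ifitm3 (also called Fragilis), a membrane protein that marks cells competent to become germ cells and is also induced by interferon, stayed within 11.85 to 12.01 on all 6 arrays. It averaged 11.95 ± 0.08 in activin, 11.86 ± 0.01 in SB431542 and 11.96 ± 0.03 in control arrays (SD, n = 2 each). The difference of SB431542 from control was −0.11 (SE 0.12, 95% interval −0.40 to 0.19, limma adjusted p = 0.736). Ifitm1 and Ifitm2, its neighbours in the family, also did not pass in any comparison. By contrast Psmb8, an immunoproteasome subunit of the interferon list, averaged 7.81 in activin, 5.54 in SB431542 and 8.13 in control cells. It fell by 2.60 on the log2 scale after SB431542 (limma adjusted p = 0.0213 by default).

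The RNA helicase Ddx4 (Vasa), a defining marker of later germ cells, read 7.95 and 8.19 in activin, 8.17 and 7.94 in SB431542, and 8.15 and 7.81 in control arrays. All 3 groups overlapped. The interval of the activin minus SB431542 difference was −0.45 to 0.48, which leaves room for a difference of that size in either direction. Mael, a piRNA pathway protein of the nuage, lay between 7.15 and 7.43 on all arrays. Its activin minus SB431542 difference was 0.17 (SE 0.15, 95% interval −0.20 to 0.54).

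Tdrd1, a Tudor domain scaffold of the piRNA pathway, was at background on 5 of 6 arrays. It read 4.32 and 5.43 in activin, 4.64 and 4.58 in SB431542, and 4.32 and 4.25 in control arrays. The 1 value above background came from activin replicate 2, the array with the highest median intensity (49). No difference is read for this gene, since nearly all its values lie within the range of the bacterial probe sets.

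Of the meiotic genes, Sycp3, a component of the chromosome axis in meiosis, stayed between 10.04 and 10.27 on the 6 arrays, and its activin minus SB431542 difference was 0.05 (SE 0.14, 95% interval −0.30 to 0.39). Stra8, the retinoic-acid-induced factor that starts meiosis, read 6.32 and 6.67 in activin, 6.21 and 5.64 in SB431542, and 6.75 and 6.11 in control arrays. Activin lay above SB431542 without overlap (as on 18.7% of all probe sets), by 0.57 (SE 0.30, 95% interval −0.18 to 1.32), but the 2 control arrays, at 6.75 and 6.11, lay further apart than that. It passed neither by default nor with the trend (limma adjusted p = 0.648 and 0.434). Leaving out 1 array moved the difference between 0.29 (without SB431542 replicate 2) and 0.85 (without SB431542 replicate 1).

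Of the 10 genes 4, Ddx4, Sycp3, Mael and Tdrd1, share a sequence feature that their choice did not use, the E-box CACGTG, the motif that Max and its partners bind. It was found in 7.15% of 32851 promoters and 8.09% of 27025 genes, and in 4 of these 10. The motif reads the same on both strands. The E-box and 12 bases on either side are shown for each, with the box in capitals (RefSeq, GRCm38.p6).
Ddx4, minus strand, chr13:112652322-112652351: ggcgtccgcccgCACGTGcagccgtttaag
Sycp3, plus strand, chr10:88459511-88459561: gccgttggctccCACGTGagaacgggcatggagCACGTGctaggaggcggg
Mael, minus strand, chr1:166238950-166238979: taccaggcctacCACGTGacaatccccgcc
Tdrd1, plus strand, chr19:56826186-56826215: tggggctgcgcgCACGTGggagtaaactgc
The Sycp3 promoter holds 2 boxes, 64 and 43 bases before the start. Those of Ddx4, Mael and Tdrd1 hold 1 each, 29, 223 and 11 bases before it. A second annotated start of Tdrd1 has the same box 77 bases before it. Ddx4 and Sycp3 also hold the E2F motif TTCCCGC (or GCGGGAA on the other strand), which 5.29% of all genes have. Prdm1, Dazl, Kit, Stra8, Nanos3 and Ifitm3 had no E-box in this window. None of the 4 genes with the E-box passed in any comparison by either fit. The number of CpG dinucleotides per window was 38 for Ddx4, 28 for Dazl, 24 for Mael, 20 for Prdm1, 15 for Sycp3 and 10 for Stra8. The Kit windows held 20 and 21, the Tdrd1 windows 20, 25 and 3, the Ifitm3 window 5 and the Nanos3 window 3. The median over all promoters was 7. The E-box letters include a CpG, and its share was not taken over promoters of similar CpG number.

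**Figure D3:**
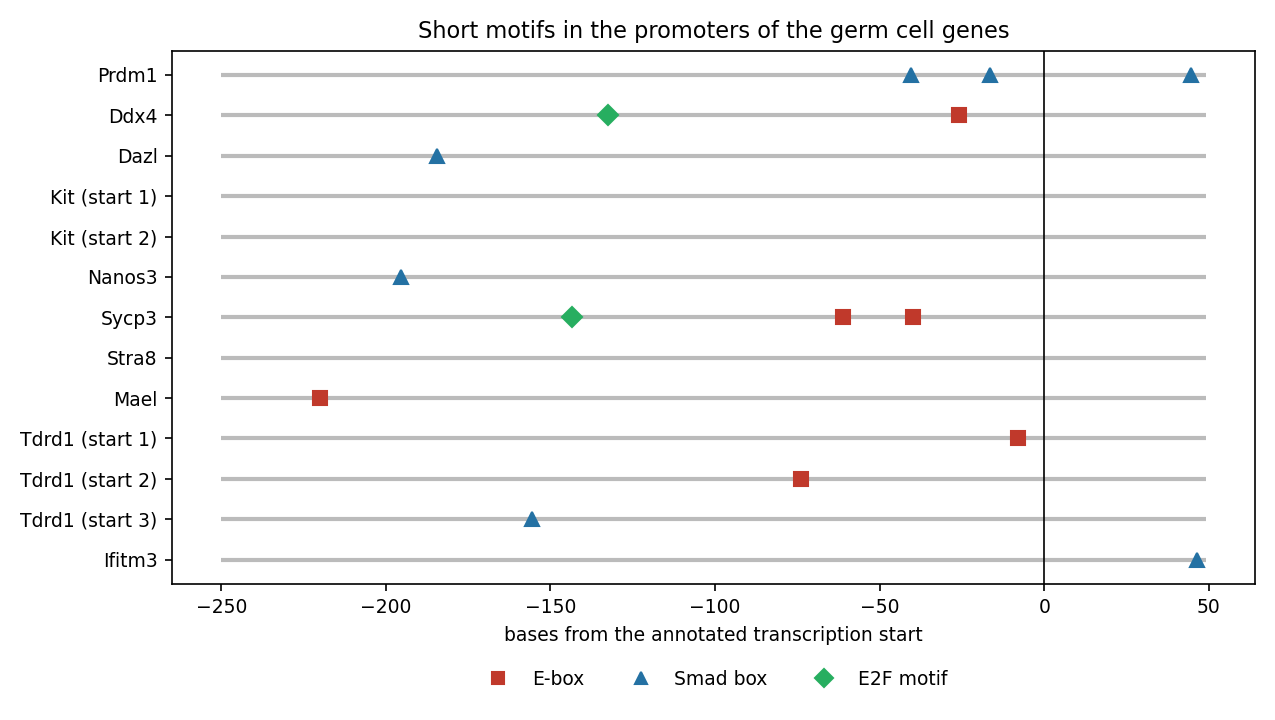
Centres of 3 short motifs along each annotated promoter of the germ cell genes, in bases from the transcription start (x axis), one line per start site. Squares (E-box) lie on Ddx4, Sycp3, Mael and Tdrd1, triangles (Smad box) on Prdm1, Dazl, Nanos3, Tdrd1 and Ifitm3, and diamonds (E2F motif) on Ddx4 and Sycp3.

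Other genes of the germ line, from lists and with the probe set of highest mean for each gene, were set beside them. By default none of the early germ cell, nuage or meiosis genes passed in any comparison, where 0.033% of all genes passed between activin and SB431542, 0% between activin and control and 0.0275% between SB431542 and control. With the trend none of these genes passed between activin and control, where 0.137% of all genes were higher and 0.011% lower. Among early germ cell genes, 14 of 15 listed were measured and 12 were above background on every array. Tfap2c acts with Prdm1 in specifying germ cells and also serves trophoblast. It read 10.31 and 10.50 in activin, 11.32 and 11.15 in SB431542, and 10.35 and 10.54 in control arrays. It was higher after SB431542 than in control by 0.79 (SE 0.15, limma adjusted p = 0.203, and 5e-07 with the trend). The part of trophoblast-like cells in that value was not tested. Of the 7 trophectoderm markers, given above, 5 were higher in the same arrays, and Cdx2 and Elf5 were lower without passing. Prdm14, another partner of Prdm1, averaged 8.79 in activin, 8.40 in SB431542 and 8.56 in control cells, the same order of groups as Prdm1, and did not pass in any comparison. With the trend Cxcl12, a chemokine that guides germ cells, was also higher after SB431542 than in control, at 1.05, while Dnd1, a germ cell RNA-binding protein, and Alpl, the alkaline phosphatase used to stain germ cells, were lower, at −0.63 and −0.53. These were 2 of 14 higher and 2 of 14 lower, against 4.25% and 2.23% of all genes. Between activin and SB431542 Dnd1 passed as higher (0.65) and Tfap2c as lower (−0.83), against 1.26% and 2.12% of all genes. Dppa3, a maternal factor kept in germ cells, averaged 10.46 in activin, 10.53 in SB431542 and 10.52 in control cells. Lin28a, an RNA-binding protein that blocks let-7 maturation, had a mean of 12.39 over all arrays and did not pass.

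In the nuage and piRNA list 16 of 18 genes were measured, and 10 were above background on every array. Tex19.1, a protein of germ cells and ES cells that restrains transposons, read 10.59 and 10.71 in activin, 10.20 and 10.18 in SB431542, and 10.60 and 10.68 in control arrays. With the trend it was higher in activin than in SB431542, by 0.46 (limma adjusted p = 0.00263, and 0.416 by default), and lower in SB431542 than in control, at −0.45 (limma adjusted p = 0.00187, and 0.279 by default). It was the 1 gene of the 16 that passed with the trend. Over all genes 1.26% passed as higher in activin than in SB431542, and 2.23% as lower in SB431542 than in control. Of 23 meiosis genes, all measured, 11 were above background on every array and none passed by either fit. Syce2, a synaptonemal complex protein, had a mean of 11.44 over all arrays. The median differences of the meiosis list were 0.12 between activin and SB431542, 0.14 between activin and control and −0.19 between SB431542 and control, against 0.0017, −0.0063 and −0.0021 over all genes. The other 12 of the 23 genes in these medians were at background on at least 1 array.

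**Figure D4:**
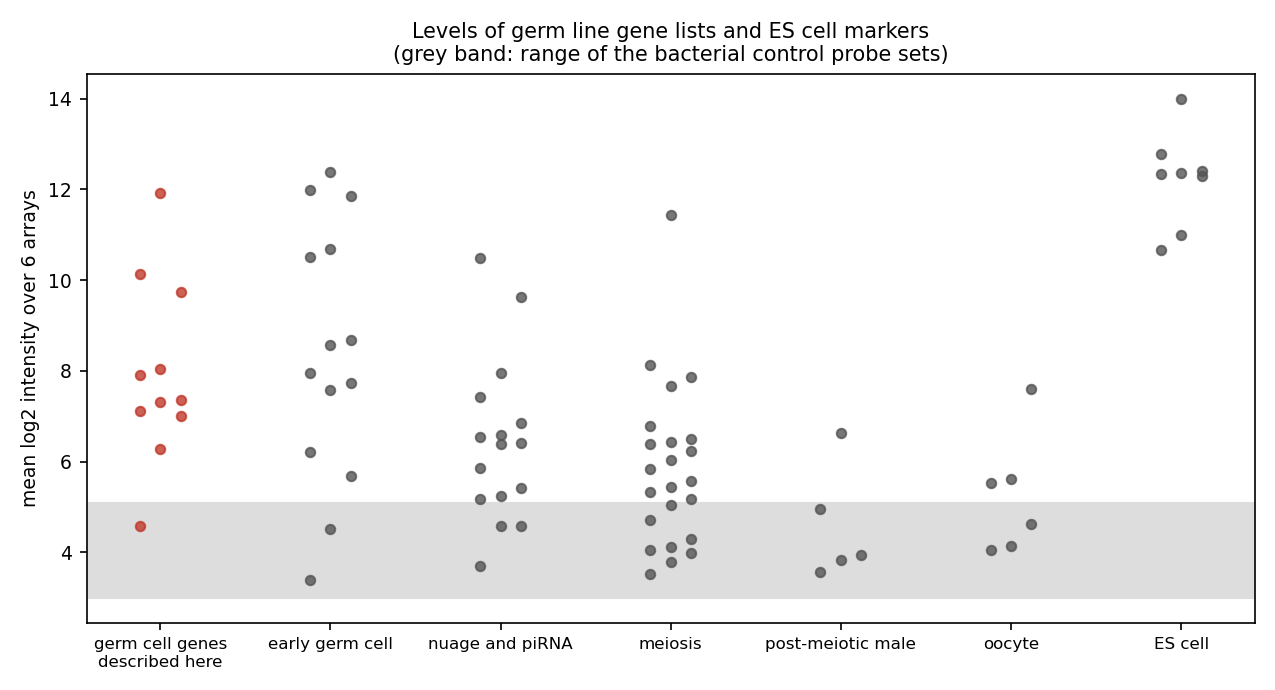
Mean log2 intensity over the 6 arrays (y axis) of each germ cell probe set described here, of the measured genes in the other germ line lists and of ES cell markers, with the range of the bacterial control probe sets in grey. All 8 ES cell markers lie above the band, while 11 of 23 meiosis genes, 1 of 5 post-meiotic male genes and 1 of 6 oocyte genes were above it on every array.

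Stra8 responds to retinoic acid in the gonad, and of 12 genes of the retinoic acid list 10 were measured and 3 were above background on every array. With the trend Crabp2, a retinoic acid binding protein, was higher after SB431542 than in control, at 0.54, and Cyp26a1, the enzyme that degrades retinoic acid, was lower, at −0.70. Over all genes 4.25% passed as higher and 2.23% as lower there. Cyp26a1 was also higher in activin than in SB431542 with the trend (0.77), against 1.26% of all genes. Rarb, a direct target of the retinoic acid receptors, was at background with a mean of 4.23. The list on silencing of germ line genes in ES cells had all its 17 genes measured, and 16 were above background on every array. Beside repressors it holds Tet1, a 5-methylcytosine oxidase. Max, Mga, E2f6, Pcgf6 and L3mbtl2 did not pass in any comparison by either fit. With the trend Uhrf1, which recruits Dnmt1 to newly copied DNA, was higher after SB431542 than in control, at 0.52. The DNA methyltransferase Dnmt3a was lower there, at −0.34, against 4.25% of all genes higher and 2.23% lower. Between activin and SB431542 Tet1 was higher (0.36) and Uhrf1 lower (−0.33) with the trend, against 1.26% and 2.12% of all genes. Trim28, a co-repressor, had a mean of 13.50 over all arrays and did not pass.

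The interferon list, to which Ifitm3 relates, had 17 of 19 genes measured and 10 above background on every array. With the trend 3 were lower after SB431542 than in control, Psmb8, Irf1 (−0.84) and Gbp2 (−0.67), and none was higher, against 2.23% of all genes lower and 4.25% higher. Between activin and SB431542 Psmb8 (2.27) and Irf1 (1.12) were higher with the trend, against 1.26% of all genes. The 10 BMP-related genes were all above background. With the trend 6 of them were higher after SB431542 than in control, Id2 (1.60), Hand1 (1.09), Id4 (0.94), Msx2 (0.88), Smad6 (0.70) and Id3 (0.48), and Smad7, an inhibitory Smad, was lower (−0.66), against 4.25% and 2.23% of all genes. Hand1 is also in the trophectoderm list. Between activin and control Id3 was lower with the trend (−1.04), against 0.011% of all genes. Between activin and SB431542 Smad7 was higher and 6 were lower, against 1.26% and 2.12% of all genes. Id1, one of the 6, read 10.79 and 11.02 in activin, 12.37 and 12.42 in SB431542, and 12.07 and 11.53 in control arrays. With the trend Id1 passed in neither comparison with control (limma adjusted p = 0.122 for SB431542 and 0.194 for activin). Prdm1, which BMP4 induces in the epiblast, averaged 7.79 in activin, 6.92 in SB431542 and 7.34 in control arrays, the reverse of the order of Id1. The group means of Id2, Id3, Id4, Msx2 and Bmp4 had the order of Id1, and those of Smad6, Hand1, Smad7 and Msx1 did not.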

How the data were processed

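RNA of E14Tg2a cells was hybridised to 1-colour Affymetrix mouse arrays; the design text names the 430A array, while the table holds 45101 probe sets. The authors deposited RMA output, per the submitters' processing notes, as intensity values (linear, whole numbers from 6 to 26405). Which software was used, and whether other arrays were normalized jointly, is not given in the sources used here. Values were converted to log2 without further normalization. The median intensities of the arrays differed, at 37 to 49, so the deposited values do not share 1 distribution. Leaving out 64 control probe sets left 45037, of which 34945 have 1 symbol in the platform annotation, 932 several and 9160 none. Groups came from titles, 1 of which, like a further label of both arrays, spells the inhibitor SB432542.

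One limma model (3.58.1, R 4.3.3) held all 6 arrays, with Benjamini-Hochberg adjustment over the 45037 probe sets at 0.05. It was run with eBayes defaults and, as an alternative given beside it, with an intensity trend and robust estimation. It was also run on simulated data with noise that depended on intensity alone. That run cannot show how either fit handles probe sets of like intensity but unequal variance. The number of arrays limits the precision. Background came from 27 Bacillus probe sets. Replicate numbers were not used as pairs.

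Members and lists (164 of 171 entries matched, in 16 lists) were chosen with earlier results of these data known. Named genes are the members, up to 6 genes of a list past the threshold in either fit, the gene of each list whose probe set read highest, and the 3 probe sets most like Prdm1. Prdm14, Dppa3, Kitl, Rarb, Ifitm2 and the Max complex were named after their values were seen. Promoters are from RefSeq (GRCm38.p6), where all 10 genes matched.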

Additional observations from a re-analysis of the deposited data

How the results depend on the processing

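Of 459 values of the 33 differences of the members under alternative settings, 434 kept their direction and their side of the threshold, 23 reversed and 2 gained a call. Many of the 434 could not reverse. Leaving out dim probe sets or arrays outside the comparison, the replicate block and the trend change no log2 difference. In those settings only the call could change. The 2 gained calls are those of Prdm1 and 1 Dazl probe set with the trend, given above. The mean per gene is counted for each probe set of Dazl and Kit. The differences that reversed were at most 0.26 in size. By default 0 germ cell probe sets passed in each comparison under every setting that kept the default variance model, and with the intensity trend 2 passed between activin and SB431542 and 0 against control. With the trend that 2 became 1 with the mean of the probe sets of a gene, and ranged from 0 to 2 when each array was left out (0 without activin replicate 2 or SB431542 replicate 1, 1 without activin replicate 1 or SB431542 replicate 2). It stayed at 2 with columns shifted to 1 median, repeated quantile normalization, the dimmest 40% of probe sets left out and a pseudocount of 16. The settings run together with the trend were chosen after seeing the data. Calls over all probe sets between activin and SB431542 were 9 by default, 412 with columns shifted, 49 with quantile normalization, 30 without dim probe sets, 64 with the pseudocount, 27 with the mean per gene, 1 with the replicate block, 0 without any 1 array and 1024 with the trend. By default and with the trend they were 0 and 97 between activin and control, and 7 and 2242 between SB431542 and control. Shifting columns moved the share of probe sets higher in activin than in control to 37.4%, against 49.3%. Leaving out each array gave ranges that crossed 0, in SB431542 against control, for Ddx4 (−0.094 to 0.25), Sycp3 (−0.17 to 0.058) and Mael (−0.16 to 0.095). In activin against control they did so for Ddx4 (−0.078 to 0.26), Dazl 1449502_at (−0.31 to 0.094), Kit 1415900_a_at (−0.0066 to 0.14), Kit 1452514_a_at (−0.23 to 0.079), Sycp3 (−0.12 to 0.11), Stra8 (−0.26 to 0.39) and Ifitm3 (−0.064 to 0.043). In activin against SB431542 they did so for Ddx4 (−0.11 to 0.14), Sycp3 (−0.012 to 0.11) and Tdrd1, at background on most arrays (−0.29 to 0.81). Averaging the probe sets of a gene turned Dazl to 0.11 and Kit to −0.0035 in activin against control, and shifting columns turned Ddx4 to −0.024 in activin against SB431542. The cause was not tested. The values with a replicate block were the same log2 differences, with 0 calls among the members by default and 2 with the trend between activin and SB431542. Deviations of same-numbered arrays correlated at −0.09 (SB431542 and activin), 0.02 (SB431542 and control) and −0.14 (activin and control). Signal over background limits Tdrd1.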
